A study of Mus musculus with 2 samples.

Results

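A nerve cell is defined in large part by the transmitter it makes and packs into vesicles, and 9 genes that carry out these steps were followed here in the newborn mouse eye: Gad1, Gad2, Slc32a1, Slc6a9, Slc17a6, Slc18a3, Chat, Slc5a7 and Th. They were taken by symbol from the feature list of 31053 genes, and all 9 were found. The data were single-cell transcript counts from eye cups at postnatal day 0, with cornea, lens and optic nerve taken off. The control library came from 3 pooled Myrf fl/fl eye cups, in which both copies of Myrf carry sites for cre recombinase and no cre was present. The mutant library came from 3 pooled Rx>cre Myrf fl/fl eye cups, in which the Rx-driven cre acts in the early eye field, the tissue that forms both neural retina and retinal pigment epithelium (RPE). Floxed Myrf was thus shared by both groups, and cre was present only in the mutant library, so effects of cre and of Myrf loss cannot be told apart. Myrf encodes a membrane-bound transcription factor found in the RPE. There was 1 library per genotype, so every difference below lies between 2 libraries, has no replicate check and carries no p-value.

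Glutamate decarboxylases, encoded by Gad1 and Gad2, make the inhibitory transmitter GABA, and the vesicular transporter encoded by Slc32a1 loads GABA and glycine into synaptic vesicles. Slc6a9 encodes the glycine transporter GlyT1, which marks glycinergic amacrine cells in the adult retina. Slc17a6 encodes the vesicular glutamate transporter VGLUT2 of ganglion cells. Chat, Slc18a3 and Slc5a7 encode the enzyme, the vesicle transporter and the choline transporter of acetylcholine neurons, which in the retina are starburst amacrine cells, and Th encodes the rate-limiting enzyme of dopamine synthesis. Amacrine cells are the main inhibitory interneurons of the retina and are still being made and maturing around birth.

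The control and mutant matrices held 14305 and 12222 barcodes with 79017429 and 76272867 unique molecular identifiers (UMIs, tags of single captured transcripts). Limits on quality and removal of called doublets left 12485 and 10813 cells with medians of 4272 and 4821 UMIs. Cells were assigned to types by marker genes, none of them among the 9 genes, and the names carry "-like" because no deposited annotation was used. The gates took 10766 control and 9436 mutant cells, among them 758 and 936 amacrine-like cells. Ganglion-like (6 and 14 cells), horizontal-like (4 and 8), starburst-like (4 and 6) and bipolar-like cells (1 and 0) were too few to describe as types. The starburst marker Fezf1 was held by 2 and 1 kept cells, so that name rests on broader markers. Mesenchyme transcripts were spread unevenly between the libraries: 64.4% of control and 3.31% of mutant amacrine-like cells held 3 or more of 8 mesenchyme markers, with like gaps in rod-like cells (68.7% and 4.32%) and RPE-like cells (76.5% and 15.9%). The source of these transcripts and their part in the ratios below were not tested. As a check of the labels, Myrf stood at 225.2 counts per 1000000 UMIs of the class (CPM) in control and 25.1 CPM in mutant RPE-like cells.

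Gad2, Slc6a9, Slc32a1 and Gad1 gave nearly all of the transmitter UMIs, while acetylcholine and dopamine genes were close to the limit of detection. In the kept cells Gad2 gave 3269 control and 4522 mutant UMIs, Slc6a9 1216 and 716, Slc32a1 441 and 595, and Gad1 80 and 99. Slc17a6 gave 36 and 37 UMIs and Slc5a7 15 and 15. Th gave 7 and 5, Slc18a3 2 and 2, and Chat 2 and 0. UMIs were counted at 3′ ends, so levels are compared between cell types or libraries and not between genes.

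**Figure D1:**
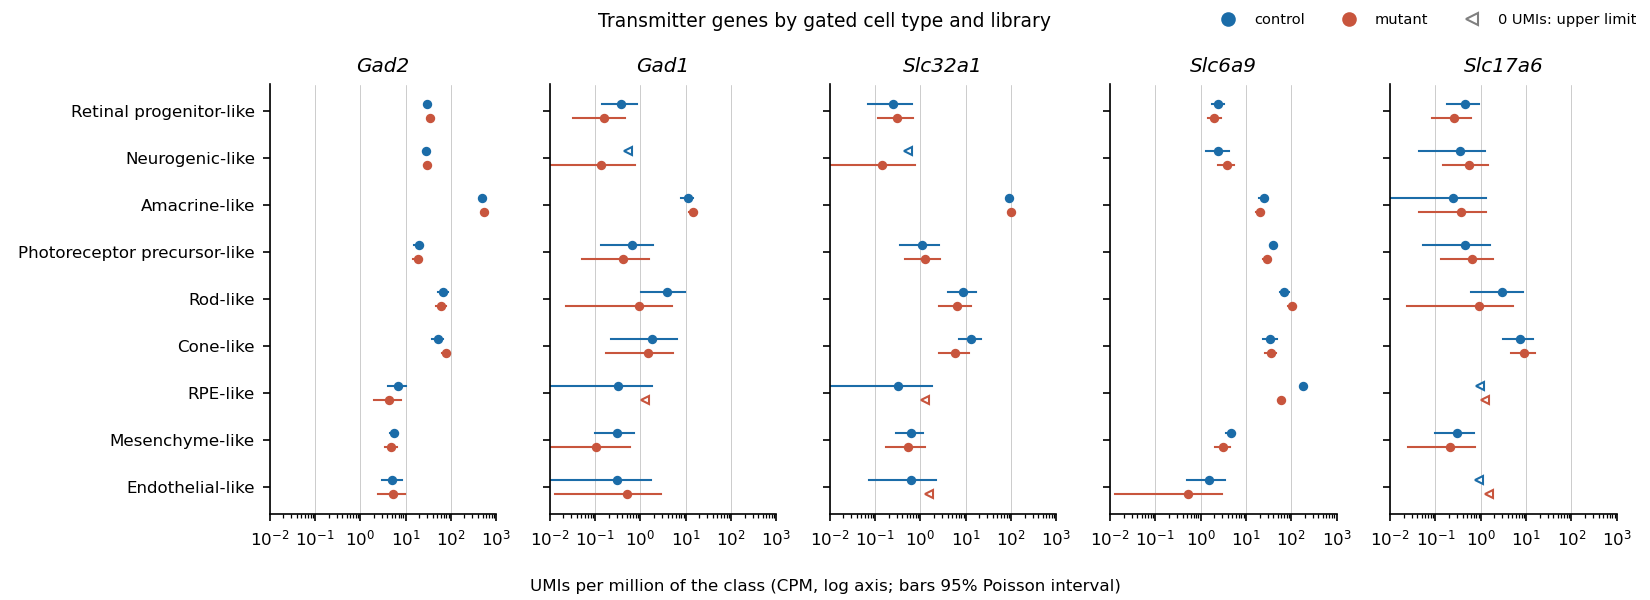
Counts per 1000000 UMIs of the class (CPM, log axis) for 5 genes in 9 gated cell types. Points are the control and mutant libraries, bars are 95% Poisson intervals, which cover counting error only, and open triangles are upper limits for 0 UMIs. Gad2, Gad1 and Slc32a1 were highest in amacrine-like cells of both libraries, and Slc6a9 in the control was highest in RPE-like cells (182.7 CPM).

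The start regions of Gad2, Gad1, Slc32a1 and Slc6a9, the genes that carry most of the signal, are shown here for reference. They come from RefSeq on GRCm38.p6, with 250 bases before and 50 bases after the annotated start, 5′ to 3′ on the gene's own strand. Capitals mark CANNTG, the E-box letters to which basic helix-loop-helix factors such as the amacrine factor Ptf1a bind, and TAATCC or its reverse complement, letters bound by photoreceptor homeodomain factors of the Otx family.
Gad2, chr2:22622077-22622376, plus strand: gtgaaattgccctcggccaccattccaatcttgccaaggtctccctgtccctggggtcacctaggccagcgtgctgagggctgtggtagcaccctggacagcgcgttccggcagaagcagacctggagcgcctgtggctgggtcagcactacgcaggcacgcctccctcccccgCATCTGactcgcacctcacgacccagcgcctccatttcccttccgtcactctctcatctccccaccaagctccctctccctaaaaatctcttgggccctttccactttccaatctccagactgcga
Gad1, chr2:70561879-70562178, plus strand: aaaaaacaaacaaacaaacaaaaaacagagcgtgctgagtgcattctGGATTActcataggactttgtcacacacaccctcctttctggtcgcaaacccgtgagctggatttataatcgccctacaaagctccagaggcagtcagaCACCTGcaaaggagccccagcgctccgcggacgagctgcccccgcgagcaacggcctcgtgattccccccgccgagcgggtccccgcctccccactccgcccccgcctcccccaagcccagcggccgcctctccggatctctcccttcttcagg
Slc32a1, chr2:158610508-158610807, plus strand: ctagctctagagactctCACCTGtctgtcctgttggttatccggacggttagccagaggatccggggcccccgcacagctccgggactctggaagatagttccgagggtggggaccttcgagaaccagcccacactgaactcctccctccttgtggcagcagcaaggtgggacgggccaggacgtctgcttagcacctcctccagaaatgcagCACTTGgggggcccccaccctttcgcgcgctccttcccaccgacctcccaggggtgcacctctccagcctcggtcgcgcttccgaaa
Slc6a9, first of 3 start sites, chr4:117835008-117835307, plus strand: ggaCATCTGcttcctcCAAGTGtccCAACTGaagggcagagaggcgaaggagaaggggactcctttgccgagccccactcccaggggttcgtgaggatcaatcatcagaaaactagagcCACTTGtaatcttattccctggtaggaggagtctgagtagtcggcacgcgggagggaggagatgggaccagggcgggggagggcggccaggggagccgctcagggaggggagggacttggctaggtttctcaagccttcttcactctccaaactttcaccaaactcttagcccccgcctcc
The window of Gad2 held 1 E-box and that of Gad1 held 1, beside 1 TAATCC match read on the other strand. The Slc32a1 window held 2 E-boxes and the Slc6a9 window 4, all of them over 100 bases before the start in Slc6a9. The other 2 start sites of Slc6a9 had no match to either motif. CANNTG occurred in 72.3% of all 32851 RefSeq promoter windows and TAATCC in 7.06%, so E-box letters alone do not set these genes apart. A match describes letters and is not evidence of binding.

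Gad2 (ENSMUSG00000026787, chr2:22622205-22693874 on GRCm38) encodes the synapse-associated form of glutamate decarboxylase, and amacrine-like cells held 61.2% of its control and 67.0% of its mutant UMIs. Its level in amacrine-like cells was 480.3 CPM in the control (95% Poisson interval 459.5 to 501.8, 2000 UMIs) and 547.7 CPM in the mutant (528.4 to 567.6, 3028 UMIs). The mutant library was thus slightly higher, by 0.19 on the log2 scale (interval 0.11 to 0.27), far below the 1.5-fold difference that was used as a mark of size. With at most 2000 UMIs per cell, an alternative with few Gad2 UMIs, the log2 ratio came to 1.505. With each cell thinned to 1000 UMIs, 33.9% of control cells (30.5% to 37.4%) and 36.1% of mutant cells (33.0% to 39.3%) held a Gad2 UMI, and these intervals overlapped. Without thinning the shares were 72.4% and 79.7%. In the non-neuronal mesenchyme-like cells, which should lack the gene, thinned shares were 1.45% for the control library and 0 of 803 cells for the mutant library, which allows up to 0.374%. They were 0.602% and 1.2% in endothelial-like, 0.98% and 1.12% in RPE-like and 1.09% and 0.685% in pericyte-like cells. The median depths of amacrine-like cells were 5106.5 and 5591 UMIs.

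Outside amacrine-like cells Gad2 fell into 2 patterns. Progenitor-like cells held a low level, 30.5 CPM in control and 34.7 CPM in mutant cells (log2 ratio 0.18, interval 0.02 to 0.36), and neurogenic-like cells, which express genes of cells leaving the cycle, held 28.0 and 30.04 CPM. These UMIs were spread thinly, with 412 control and 564 mutant progenitor-like cells carrying at least 1 and none carrying more than 4. Leaving out progenitor-like cells with 3 or more amacrine markers, an alternative chosen after seeing the data, gave 30.3 and 34.1 CPM. Mesenchyme-like cells stood at 5.6 and 4.74 CPM, endothelial-like cells at 5.14 and 5.21 CPM and RPE-like cells at 6.76 and 4.26 CPM. Red blood cell-like cells stood higher, at 15.5 and 12.2 CPM, on 17 and 12 UMIs. All of these lay below the progenitor-like level with intervals that did not meet it. Mutant muscle-like cells did meet it, at 41.4 CPM (23.2 to 68.4) on 15 UMIs in 4 of 34 cells, while control muscle-like cells held 1 UMI.

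Gad2 in rod-like and cone-like cells was held by a small number of cells. The levels were 66.9 CPM (69 UMIs) and 61.3 CPM (67 UMIs) in rod-like cells and 50.9 CPM (56 UMIs) and 78.8 CPM (107 UMIs) in cone-like cells. The 10 richest cells carried 81.2% and 83.6% of these UMIs in rod-like cells and 75.0% and 74.8% in cone-like cells, against 6.35% and 5.35% in amacrine-like cells. Of the rod-like cells 8.71% in the control and 7.91% in the mutant library held 3 or more amacrine markers, and of the cone-like cells 10.9% and 8.77%. Without those cells rod-like Gad2 came to 3.65 and 7.99 CPM, on 3 and 7 UMIs, and cone-like Gad2 to 5.97 and 10.8 CPM, on 5 and 12 UMIs. The Gad2 ratio in cone-like cells (log2 0.62, interval 0.15 to 1.12) was the 1 member difference at least 1.5-fold higher in the mutant there, a size reached by 6.44% of all genes measured in cone-like cells, and most of the UMIs behind it came from these few cells. Without cells holding 3 or more amacrine markers the log2 ratio was 0.76, with an interval from -0.75 to 2.72. With clusters in place of gates it turned to -0.03, on 8 and 11 UMIs. Photoreceptor precursor-like cells stood at 19.5 and 18.6 CPM, and the 1719 and 1377 cells that no gate took at 33.8 and 37.4 CPM.

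Gad1 (ENSMUSG00000070880, chr2:70553072-70602014) encodes the decarboxylase that supplies most GABA in the cell body, and its UMIs were mainly in amacrine-like cells, 57.5% in the control and 81.8% in the mutant library. It stood at 11.1 CPM (46 UMIs) in control and 14.7 CPM (81 UMIs) in mutant cells, a log2 ratio of 0.38 whose interval ran from -0.13 to 0.96. The difference was not resolved at this depth. Of the amacrine-like cells, 3.96% in the control and 4.92% in the mutant library held UMIs of both Gad1 and Gad2. The antisense gene Gad1os overlaps Gad1 and gave 0 UMIs in amacrine-like cells.

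Slc32a1 (ENSMUSG00000037771, chr2:158610767-158615748) was, of the 4 abundant members, the most restricted to amacrine-like cells, which held 85.3% of its control and 90.9% of its mutant UMIs. Its level there was 90.3 CPM (376 UMIs) in control and 97.9 CPM (541 UMIs) in mutant cells, a log2 ratio of 0.11 (interval -0.08 to 0.31). The difference lay within counting error. Of the amacrine-like cells with a Slc32a1 UMI, 84.7% and 88.9% also held Gad2, and 27.8% (24.7% to 31.2%) and 35.1% (32.1% to 38.3%) of all amacrine-like cells held both genes. These shares were not thinned, so the greater mutant depth enters into them.

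The vesicle transporter set the amacrine-like cells apart from the progenitor-like cells more than Gad2 did. For every 100 Gad2 UMIs there were 18.8 Slc32a1 UMIs in control and 17.9 in mutant amacrine-like cells, but 0.830 (interval 0.225 to 2.14) and 0.894 (0.327 to 1.96) in progenitor-like cells. Neurogenic-like cells held 159 and 217 Gad2 UMIs beside 0 and 1 UMI of Slc32a1. In mesenchyme-like cells the figure was 10.99 in the control and 11.11 in the mutant. Low Gad2 in dividing and newly committed cells was thus recorded with almost no Slc32a1, in both genotypes.

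In cone-like cells Slc32a1 was 12.7 CPM (14 UMIs) in control and 5.89 CPM (8 UMIs) in mutant cells, at least 1.5-fold lower, as were 7.70% of all genes measured in that class. The interval of its log2 ratio of -0.99 ran from -2.57 to 0.24. Without cells holding 3 or more amacrine markers 0 and 1 UMIs were left.

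The amacrine-like cells were also split by Ptf1a and Prdm13, transcription factors that specify amacrine fate and are made early in it. The split put 492 control and 595 mutant cells with a UMI of either factor in the positive subset and 266 and 341 cells in the negative subset, whose median depths were at least as high (5475.5 against 4916 UMIs in the control). Gad1 was 4.01 and 3.15 CPM (11 and 11 UMIs) in the positive subset and 24.7 and 34.5 CPM (35 and 70 UMIs) in the negative subset. That is 6.16-fold higher in negative than in positive control cells (interval 3.06 to 13.4) and 10.96-fold higher in mutant cells (5.76 to 23.0). Slc32a1 was 1.83-fold higher in the negative subset of the control (1.49 to 2.26) and 1.48-fold higher in that of the mutant (1.24 to 1.76). Gad2 differed least, by 1.24-fold (1.13 to 1.36) and 1.16-fold (1.08 to 1.25).

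Slc6a9 ran the other way. It stood at 37.2 CPM (102 UMIs) in control and 30.9 CPM (108 UMIs) in mutant positive cells, and at 0 UMIs in the control and 2.46 CPM (5 UMIs) in the mutant negative cells. In the control it was at least 17.6-fold higher in the positive subset, taking 3 UMIs as the upper limit for the negative subset, and in the mutant 12.6-fold higher (5.21 to 39.4). At 1000 UMIs per cell, 3.09% and 3.04% of positive cells held a UMI, against 0 of 263 and 0 of 335 negative cells, which allow up to 1.14% and 0.896%. All 4 genes thus kept the same order of subsets in both genotypes.

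**Figure D2:**
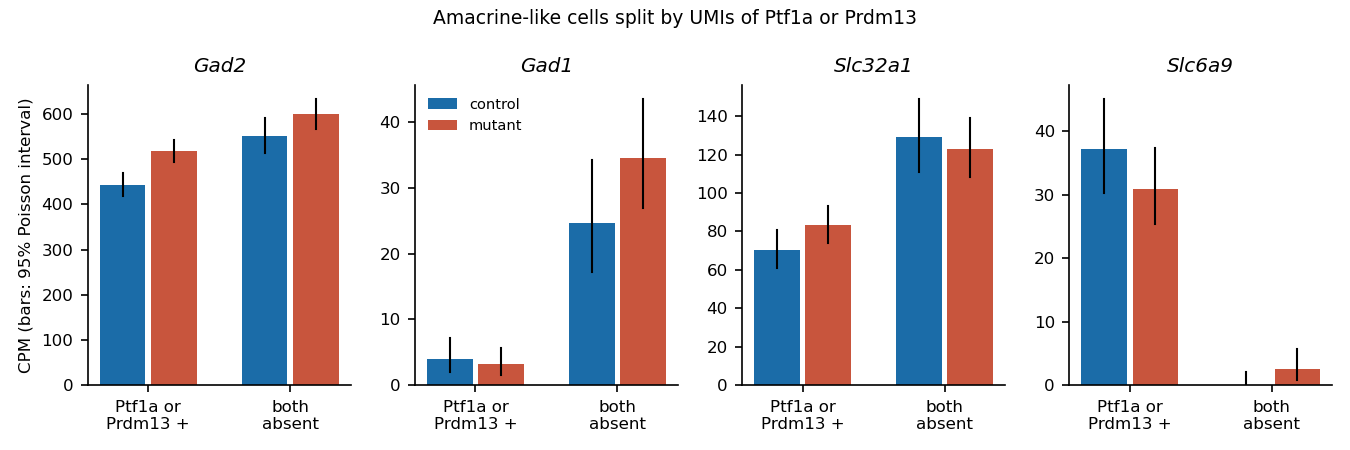
Levels (CPM) of Gad2, Gad1, Slc32a1 and Slc6a9 in amacrine-like cells with a UMI of Ptf1a or Prdm13 and in those with none, in the control and mutant libraries. Bars are levels, lines on them are 95% Poisson intervals for counting error, and a line with no bar is the upper limit for 0 UMIs. Gad1 was higher in the negative subset (24.7 and 34.5 CPM) and Slc6a9 in the positive subset (37.2 and 30.9 CPM) of both libraries.

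Several genes used elsewhere to tell amacrine subtypes apart varied with the same split and had no part in it, though Ebf1 and Ebf3 were ganglion markers of the gates. Maf, another such gene, varied less, at 7.29 and 7.72 CPM in positive and 10.6 and 7.88 CPM in negative cells. Ebf1, an early B-cell factor found in glycinergic amacrine subsets, was 141.0 and 118.7 CPM in positive against 21.1 and 16.7 CPM in negative cells. Ebf3, of the same family, was 30.6 and 24.3 CPM against 4.23 and 1.97 CPM. Tcf4, a basic helix-loop-helix factor, was 708.9 and 572.5 CPM against 239.6 and 137.4 CPM. Nr4a2, a nuclear receptor of GABAergic amacrine subsets, was higher in negative cells, at 106.4 and 131.9 CPM against 16.4 and 19.4 CPM. Lmo4, a LIM-domain cofactor, was also higher in negative cells, at 966.8 and 579 CPM against 416.8 and 299.7 CPM. Neurogenic markers differed as well, with 3 or more in 81.9% and 84.7% of positive and in 37.6% and 42.2% of negative cells, so stage and subtype cannot be told apart by this split. Neurod6, a gene of another subtype, gave 1 UMI in positive control cells and 0 in the other subsets.

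Between genotypes the subsets differed little. Gad2 was higher in the mutant positive subset by 0.22 on the log2 scale (0.12 to 0.33), and in the negative subset by 0.12 with an interval from -0.01 to 0.25. Gad1 differed by -0.27 in the positive subset (-1.70 to 1.00) and by 0.47 in the negative subset (-0.12 to 1.11). Slc6a9 in the positive subset differed by -0.26 (-0.67 to 0.14). None of the members was past 1.5-fold in either direction in amacrine-like cells or their subsets, where 3.63% of all genes measured in amacrine-like cells were higher and 4.25% lower by that much. The shares in the subsets were 4.58% and 4.48% (positive) and 6.76% and 5.50% (negative).

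Slc6a9 (ENSMUSG00000028542, chr4:117834506-117875198) was found in RPE-like, photoreceptor-lineage, ciliary margin-like, astrocyte-like and amacrine-like cells. In the control its order was RPE-like cells at 182.7 CPM, rod-like at 70.7, ciliary margin-like at 60.9 (13 UMIs in 22 cells), astrocyte-like at 44.1, photoreceptor precursor-like at 39.8, cone-like at 34.5 and amacrine-like at 24.5 CPM. The RPE-like level lay apart from all others, while from rod-like cells down each level overlapped its neighbour within the counting interval. In the mutant library the order was rod-like cells at 104.4 CPM, RPE-like at 59.6, cone-like at 35.4, astrocyte-like at 29.6, precursor-like at 28.9 and amacrine-like at 20.4 CPM, where the rod-like and RPE-like levels lay apart from their neighbours and the lower levels overlapped theirs. The 5 mutant ciliary margin-like cells held 0 UMIs, which allows up to 67.7 CPM. Progenitor-like cells stood at 2.47 and 2.02 CPM, neurogenic-like cells at 2.47 and 3.74 and mesenchyme-like cells at 4.68 and 3.05 CPM. In amacrine-like cells 75.6% and 78.7% of cells with Slc6a9 also held Gad2, beside 72.4% and 79.7% of all amacrine-like cells. Slc32a1 was held by 41.0% and 29.2% of cells with Slc6a9, beside 32.85% and 39.5% of all amacrine-like cells. Gad1 and Slc6a9 were held together by 2 control and 0 mutant cells.

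In rod-like cells Slc6a9 was spread over many cells, unlike Gad2 there. The rod-like level of 70.7 CPM came from 73 UMIs in 58 cells and that of 104.4 CPM from 114 UMIs in 90 cells, and no rod-like cell held more than 4. Thinned shares were 8.42% and 9.56% in rod-like cells and 0 of 332 and 0 of 166 in endothelial-like cells, which allow up to 0.904% and 1.81%. They were 0.538% and 0.249% in mesenchyme-like cells and 1.09% and 0% in pericyte-like cells. Leaving out rod-like cells with 3 or more amacrine markers gave 80.4 and 123.3 CPM. The mutant level was higher by 0.55 on the log2 scale (0.12 to 1.00) in rod-like cells and differed by -0.45 (-0.79 to -0.13) in precursor-like cells and by 0.03 (-0.61 to 0.69) in cone-like cells. In rod-like cells 7.04% of all genes were at least 1.5-fold higher and 6.70% lower, and no member passed that size. In precursor-like cells the shares were 3.43% and 4.10%, again with no member past it. The rod-like ratio came to 0.05 (-0.30 to 0.40) when clusters took the place of the gates, and it turned to -0.02 when cells of at most 2000 UMIs were gated by themselves, on 8 and 3 UMIs. With the gates unchanged, the mutant value was the higher in all 4 depth ranges of rod-like cells, for example 88.9 and 143.9 CPM between 2000 and 4000 UMIs, where most of the UMIs lay. The precursor-like ratio turned to 1.48 under the same limit, on 7 and 9 UMIs. Cone markers moved with the rod-like difference, with 3 or more in 29.0% of control and 46.0% of mutant rod-like cells, and their part in the difference was not tested.

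The largest difference between the genotypes among the members was Slc6a9 in RPE-like cells. It stood at 182.7 CPM (168.0 to 198.4, 568 UMIs in 494 cells) in control and at 59.6 CPM (50.1 to 70.3, 140 UMIs in 195 cells) in mutant cells, a log2 ratio of -1.60 (-1.89 to -1.35). Thinned to 1000 UMIs, 13.7% of 408 control and 3.91% of 179 mutant cells held a UMI, with 86 and 16 shallower cells left out. Unthinned, 187 control and 61 mutant cells held a UMI. In RPE-like cells 12.6% of all genes measured were at least 1.5-fold lower in the mutant and 7.47% higher, so Slc6a9 was among many. The other members gave at most 21 UMIs per library in RPE-like cells.

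RPE-like cells of the libraries differed in depth and in make-up, and the Slc6a9 values are given within each. Median depths were 2616 UMIs for control and 10602 for mutant cells. In cells of over 8000 UMIs the level was 208.5 CPM (136 cells) and 64.2 CPM (113 cells), and in each of the 3 lower depth ranges the mutant value was lower as well, on 2 mutant UMIs each. The largest control group lay in a cluster led by Ttr and Krt18 (245 against 47 cells), where the level was 150.2 and 29.6 CPM (log2 ratio -2.31, -4.01 to -1.05). The deepest RPE-like cluster, led by Slc16a8 and Ttr (139 and 40 cells), gave 232.1 and 114.1 CPM (-1.02, -1.35 to -0.71). The largest mutant group lay in a cluster led by Pcp4 and Folr1 (39 and 88 cells), in which 5 RPE markers and 4 ciliary margin markers counted, against 6 and 2 in the deepest cluster, and there the level was 27.7 and 30.02 CPM (0.11, -0.96 to 1.35). Leaving out that last cluster, an alternative chosen after seeing the data, gave a ratio of -1.11 (-1.44 to -0.82).

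**Figure D3:**
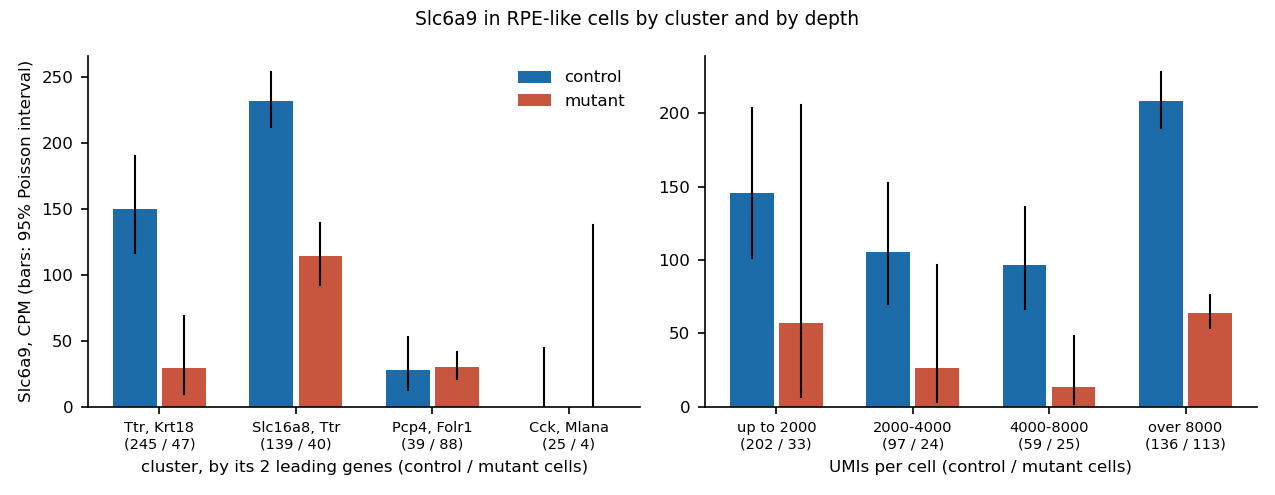
Slc6a9 (CPM, with 95% Poisson intervals for counting error) in RPE-like cells by cluster, left, and by UMIs per cell, right, with cell numbers under each pair of bars. A line with no bar is the upper limit for 0 UMIs. The control library was higher in both clusters led by Ttr or Slc16a8 and in all 4 depth ranges, and the values were 27.7 and 30.02 CPM in the cluster led by Pcp4 and Folr1.

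Exon sequence of Slc6a9 lies within the spans of the genes Ccdc24 and B4galt2 on the opposite strand. Whether it meets exons of those genes was not examined. The strand setting of the counting is not given in the sources used here. B4galt2 was 42.1 and 26.0 CPM in RPE-like cells and 9.69 and 19.2 CPM in rod-like cells, and Ccdc24 gave 7 and 0 UMIs in RPE-like cells. Both partners thus differed in the same direction as Slc6a9 in RPE-like cells, and a part of their reads in the Slc6a9 counts was not tested.

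Slc17a6 (ENSMUSG00000030500, chr7:51622006-51671119) was found in few cells, and the cells with the most of it were those with ganglion cell factors. The gated ganglion-like cells, 6 in the control and 14 in the mutant, held 5 and 5 of its UMIs. Across all kept cells, 2 control cells held UMIs of at least 2 of the Pou4f factors, which define ganglion cells, and both held Slc17a6. In the mutant 2 of 3 such cells held it. Of cells with 1 Pou4f gene, 0 of 94 in the control and 0 of 101 in the mutant held it, which allow up to 3.19% and 2.97%. Among cells with no Pou4f gene it was found in 28 of 12389 and 31 of 10709 cells. Cone-like cells gave the highest level of the larger classes, 7.27 CPM (8 UMIs) and 8.84 CPM (12 UMIs), with a log2 ratio of 0.25 (-1.13 to 1.78). Mesenchyme-like cells gave 0.308 and 0.211 CPM, and rod-like cells 3 and 1 UMIs.

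The acetylcholine genes gave no amacrine pattern at this depth. Chat (ENSMUSG00000021919, chr14:32408203-32465989, minus strand), which makes acetylcholine, gave 1 UMI in neurogenic-like and 1 in mesenchyme-like control cells and 0 in the mutant library. In amacrine-like cells it was at 0 UMIs in both libraries, which allows up to 0.720 and 0.543 CPM. Slc18a3 (ENSMUSG00000100241), its vesicle transporter, lies inside the Chat locus at chr14:32462438-32464850 on the same strand and gave 2 and 2 UMIs in all. Slc5a7 (ENSMUSG00000023945, chr17:54273590-54299034, minus strand), the choline transporter, gave 4 and 7 UMIs in progenitor-like cells and 0 in amacrine-like cells of both libraries. The few starburst-like cells held 0 UMIs of all 3 genes, and 3 and 3 UMIs of Gad2. Th (ENSMUSG00000000214, chr7:142892752-142931128, minus strand), the dopamine enzyme, gave 1 and 2 UMIs in amacrine-like cells, 3 and 1 in RPE-like and 2 and 2 in mesenchyme-like cells, so amacrine-like cells were not set apart by it.

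Across the 9 genes, 24 pairs of a gene and a cell type had 20 or more UMIs over both libraries, and they cover 5 genes and 12 types. The counting interval of the log2 ratio lay apart from 0 in 6 of them. Over all genes measured in these 12 types it lay above 0 in 9.19% and below 0 in 8.49% of cases. In 4 the mutant was higher, namely Gad2 in progenitor-like, amacrine-like and cone-like cells and Slc6a9 in rod-like cells, and in 2 it was lower, Slc6a9 in precursor-like and RPE-like cells. Past 1.5-fold there was 1 pair higher and there were 2 lower. With 1 CPM added to each side, no member with 20 or more UMIs passed that size in neurogenic-like cells. Of all genes measured there, 3.31% were higher and 2.67% lower. The same held for members in endothelial-like (4.13% and 7.05% of all genes), mesenchyme-like (1.38% and 3.5%) and pericyte-like cells (6.7% and 6.03%). The median log2 ratio over all measured genes was 0.03 in amacrine-like and -0.03 in RPE-like cells.

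**Figure D4:**
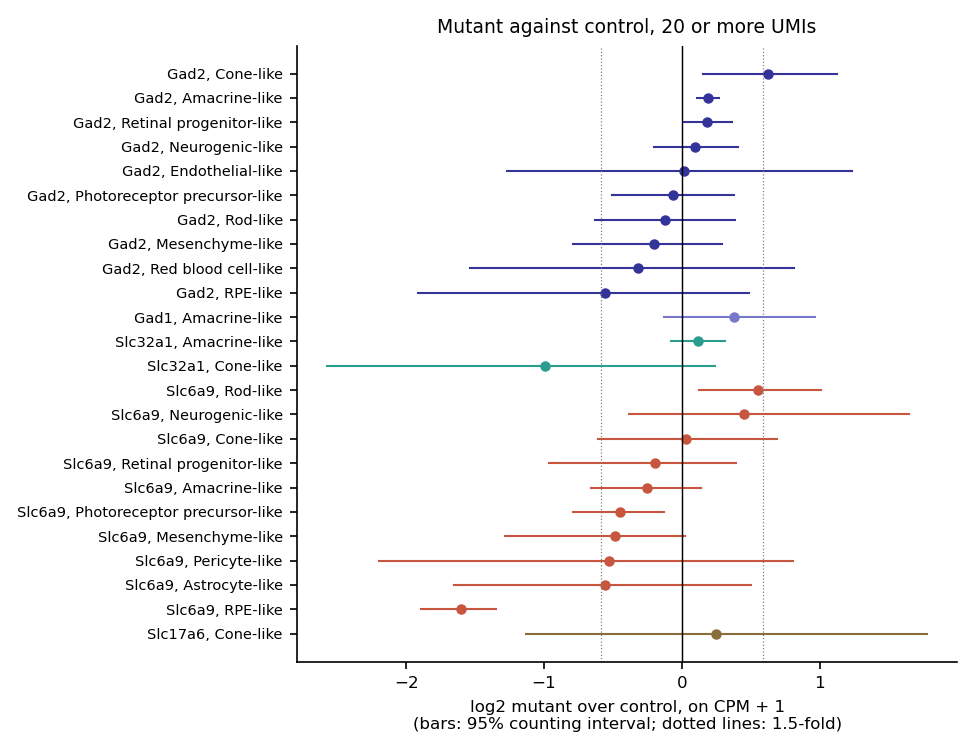
Log2 ratio of mutant over control, on CPM with 1 CPM added, for the 24 pairs of gene and cell type with 20 or more UMIs. Points are ratios, bars are exact conditional Poisson intervals of counting error, the solid line is no difference and the dotted lines mark 1.5-fold. Slc6a9 in RPE-like cells (-1.60) lies farthest from 0, and Gad2 in amacrine-like cells (0.19) has the narrowest interval.

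Of 79 further genes of uptake, release and reception, 48 were measured in amacrine-like cells, with a median log2 ratio of 0.16 and a range from -0.48 to 1.01. Past 1.5-fold, 3 were higher and 0 lower, beside 3.63% and 4.25% of all genes measured. The counting interval lay above 0 for 11 and below 0 for 1, beside 9.45% and 7.51% of all genes. Among the genes of GABA and glycine handling, the GABA-degrading transaminase Abat was 70.8 and 76.7 CPM and the glycine-forming enzyme Shmt2 68.0 and 63.7 CPM. Slc6a13, a GABA transporter, was 11.1 and 21.0 CPM. In the negative subset Slc6a13 gave 4 control UMIs and 43 mutant UMIs, the latter in 39 cells (log2 ratio 2.54, 1.45 to 4.85), and in progenitor-like cells 104 and 229 UMIs. The glycine transporter GlyT2, encoded by Slc6a5 and typical of glycinergic neurons elsewhere in the nervous system, gave 11 and 22 UMIs in amacrine-like cells.

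Release genes were present in amacrine-like cells of both genotypes. Cplx3, a complexin of retinal synapses, was 403.2 CPM in control and 289.6 CPM in mutant cells (log2 ratio -0.48, -0.58 to -0.38). It was the 1 gene of the list with an interval below 0. Most of its UMIs lay in the positive subset, at 597.8 and 442.9 CPM (-0.43, -0.53 to -0.33). The negative subset held 26.8 and 25.6 CPM (-0.06, -0.70 to 0.58). The vesicle protein Vamp2 was 156.8 and 178.9 CPM and the calcium sensor Syt1 147.0 and 177.5 CPM. Syn1, which tethers vesicles, was 5.52 and 12.1 CPM (1.01, 0.43 to 1.89), on 23 and 67 UMIs. In the negative subset Syn1 (10 and 37 UMIs) was higher in the mutant by 1.26 (0.33 to 2.54). The membrane fusion protein Stx1a (8 and 30 UMIs) was higher there by 1.25 (0.23 to 2.73). In the positive subset Syn1 differed by 0.74 (-0.13 to 1.92) and Stx1a by -0.07 (-0.83 to 0.68).

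Of the glutamate genes, Glul, which makes glutamine, was 109.5 and 117.6 CPM in amacrine-like cells, and the glutamate transporter Slc1a3 was 86.7 and 109.1 CPM. The highest acetylcholine genes were nicotinic receptor subunits. Chrnb2 was 20.4 and 23.2 CPM, Chrna3 16.3 and 16.3 CPM and Chrna4 10.8 and 16.1 CPM. Of the amine genes, Maoa, an amine oxidase, was 8.89 and 10.1 CPM and Pnmt, which makes adrenaline, 8.17 and 7.78 CPM. The receptor genes Gabra2 (66.8 and 72.9 CPM), Gria2 (58.4 and 74.4 CPM) and Gria4 (45.4 and 53.7 CPM) were the highest of their group. Chrna3 gave 2 control and 26 mutant UMIs in progenitor-like cells, where 3 of 47 measured genes were past 1.5-fold higher and 0 lower, against 1.85% and 2.00% of all genes. In rod-like cells Chrna3 gave 4 and 18 UMIs, Cplx1 13 and 33, and Slc1a3 73 and 34. In cone-like cells Chrna3 was 52.7 and 55.2 CPM and Cplx1 37.3 and 36.8 CPM, above the rod-like levels, and 3 or more cone markers were held by 29.0% of control and 46.0% of mutant rod-like cells. Their part in these differences was not tested.

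In RPE-like cells, of 35 genes of the same list that were measured, 13 were past 1.5-fold lower and 2 higher in the mutant, beside 12.6% and 7.47% of all genes. The median log2 ratio of the list was -0.25, and intervals lay below 0 for 12 and above 0 for 4, beside 15.2% and 12.4% of all genes. The glutamate transporter Slc1a1 was 209.8 and 63.9 CPM (-1.70, -1.98 to -1.46), Slc1a3 differed by -1.04 and Slc1a2 by -1.09. The GABA transporter Slc6a13 (51.5 and 21.7 CPM) differed by -1.21. Maob, an amine oxidase, gave 24 and 1 UMIs, Syt4 differed by -1.18 and Rab3a by -1.05. Gabra2, a GABA receptor subunit, was higher in the mutant, with 5 UMIs in the control and 74 UMIs in 43 cells of the mutant (3.64, 3.01 to 5.96).

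These values also varied with the clusters among which the RPE-like cells were spread unevenly. Of the 74 mutant UMIs of Gabra2, 57 lay in the cluster led by Pcp4 and Folr1, which held 39 control and 88 mutant cells and 0 control UMIs. Without that cluster Gabra2 gave 5 and 17 UMIs (2.54, 1.59 to 4.88). Slc1a1 was 282.6 and 114.1 CPM in the cluster led by Slc16a8 and Ttr (-1.30, -1.63 to -0.998), but 12.3 and 33.3 CPM, on 4 and 41 UMIs, in the one led by Pcp4 and Folr1 (1.36, -0.03 to 3.38). Without the latter cluster Slc1a1 differed by -1.25, Slc6a13 by -0.73, Slc1a3 by -0.70, Slc1a2 by -0.91 and Rab3a by -1.32, all with intervals below 0. Syt4 differed by -0.69 with an interval from -1.85 to 0.22, and 44 of its 46 control UMIs lay in 25 cells of a cluster led by Cck and Mlana, in which most cells were gated as melanocyte-like. Of 32 genes of the list measured without the Pcp4 and Folr1 cluster, 12 were past 1.5-fold lower and 3 higher, beside 14.7% and 8.22% of all genes.

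In cone-like cells 0 of 32 genes were past 1.5-fold higher and 5 lower, beside 6.44% and 7.7% of all genes. Gldc, of glycine breakdown, was 27.3 and 12.5 CPM there (-1.06, -2.07 to -0.22).

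The genes whose levels followed a member most closely over cell types were named by Pearson correlation of log2(CPM + 10) over 32 pairs of cell type and library, covering 17 types, among 13424 genes. For Gad2 they were Scrt2 (r = 0.957), Kcnh8 (0.948) and Scrt1 (0.947). For Slc32a1 they were Cacng2 (0.989), Cacng3 (0.987) and Syt6 (0.983). For Slc6a9 they were Sv2b (0.880), 1190005I06Rik (0.880) and Prcd (0.874). Pairs share a library and its depth, and these values are descriptions only. The remaining members had under 200 UMIs and were not compared in this way.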

How the data were processed

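Single-cell libraries of the 10x 3′ type from 2 pools of postnatal day 0 eye cups were analysed. The authors deposited raw UMI counts for each gene and barcode, without normalization. The submitters' processing notes name Cell Ranger 7.1.0, Seurat 4.1.1 and the mm10 build, while the matrix headers give software version 3.1.0. Which version counted the UMIs, and the annotation and strand setting, are not given in the sources used here. Positions are from GENCODE M21 on GRCm38, matched by Ensembl identifier.

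Barcodes with at least 200 genes and at most 15% mitochondrial UMIs were kept. The upper limit of 2000 UMIs that the study states lies below 80.2% of control and 92.1% of mutant barcodes, so it was used only as an alternative. Doublets were called with Scrublet in scanpy 1.11.5 at an expected 0.8% per 1000 cells, which removed 11.7% of control and 10.1% of mutant barcodes. The caller's automatic threshold would have removed 0% and 5.46%, so the expected rate served for both libraries. The libraries shared 59 barcode sequences.

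A cell was gated to the type with the highest mean standardized marker score if at least 3 of its markers were detected, the score was above 0.3 and it led the next type by 0.1. These limits were set with the data in view, and the members and lists were chosen with earlier results of these data known. Of amacrine-like cells, 3.69% in the control and 1.71% in the mutant library lay within 0.1 of a limit. Melanocyte-like cells were not compared, since 2 RPE markers and 1 of their own were among their 10 leading genes. UMIs were summed per library and type and divided by the total of the type (CPM). Log2 ratios have 1 CPM added to each side, for genes with at least 20 UMIs. All 95% intervals (Poisson, conditional Poisson for plain ratios, Clopper-Pearson for shares) cover counting error only. For 0 UMIs the upper limit is 3 counts. Clusters came from 2000 variable genes, 30 components and Leiden resolution 2 without the members (leidenalg 0.10.2). The scripts were tested on simulated data.

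All 9 members are described. Other pathway genes are named as the 3 highest of each group of the list, and where they differ at least 2-fold with an interval apart from 0, or, outside that rule, after their values were seen. Some genes that these rules name are not reported here. Likeness names the 3 highest correlations for members with at least 200 UMIs. Alternatives changed doublet removal, depth, mitochondrial limit, gates, scaling, added CPM and count minimum.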

Additional observations from a re-analysis of the deposited data

Results flagged for a closer look

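The difference of Slc6a9 between the libraries ran in opposite directions among cell types, which drew attention to it. The log2 ratio of mutant over control was -0.45 in photoreceptor precursor-like cells and -1.60 in RPE-like cells, and 0.55 in rod-like cells. The difference between these ratios was not tested, because there was 1 library per genotype. The rod-like value came to 0.05 when clusters replaced the gates. With at most 2000 UMIs per cell the precursor-like value turned to 1.48, on 7 and 9 UMIs, and the rod-like value to -0.02, on 8 and 3 UMIs.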

How the results depend on the processing

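No paired analysis was possible because there was 1 library per genotype, and for the same reason no replicate could be left out. The Gad2 ratio in amacrine-like cells kept its sign in 12 of 12 alternatives and that of Slc6a9 in RPE-like cells in 13 of 13. Both counts include the alternatives in added CPM, which use the same UMIs and cannot change a sign. With at most 2000 UMIs per cell, log2 ratios became 1.51 for Gad2 in amacrine-like cells (22 and 23 UMIs), 1.48 for Slc6a9 in precursor-like cells, -0.019 in rod-like cells and -1.31 in RPE-like cells. With clusters in place of gates they became 0.048 for Slc6a9 in rod-like cells and -0.029 for Gad2 in cone-like cells, and Gad2 in mutant amacrine-like cells was 509.4 CPM. Slc6a9 in RPE-like cells came to -2.0 with at most 5% mitochondrial UMIs and to -1.11 without the cluster led by Pcp4 and Folr1, which had the most ciliary margin markers. The rod-like interval of Slc6a9 stayed apart from 0 in 7 of 13 alternatives, among them those in added CPM, which leave the interval unchanged. Gad2 in amacrine-like cells was 449.9 and 509.7 CPM with no doublet removal, and 514.2 and 570.8 CPM with a lead of 0.5 over the next type. The lead and both cell exclusions were chosen after seeing the data. Shares of amacrine-like cells with Gad2 were 53.2% and 56.9% at 2000 UMIs per cell and 72.4% and 79.7% with no thinning, and shares with both Gad2 and Slc32a1 were 8.18% and 9.51% at 2 or more UMIs of each. Genes past 2-fold in amacrine-like cells were 0.511% higher and 1.79% lower, and past 1.5-fold with at least 100 UMIs 1.38% and 1.49%. In RPE-like cells they were 2.53% and 5.23% past 2-fold, and 4.78% higher with at least 100 UMIs. Of 378 alternatives to the member ratios, subsets included, 343 had the sign of the reported ratio and 35 the other sign. The 343 include the alternatives in added CPM, whose sign was fixed in advance. The cause of the changes in sign was not tested. Gad1, Slc17a6, Th and the acetylcholine genes gave few UMIs, and few starburst-like and ganglion-like cells were captured.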
